A study of Mus musculus with 12 samples.

Results

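The genes described here copy the DNA of a dividing cell in S phase: those that license origins and unwind them, the polymerases with their clamp and loader, the suppliers of nucleotides, and the regulators that start S phase. The set holds 44 named genes, and each was read from the brightest probe set that carries its symbol alone, by mean signal over 12 arrays. By this rule 42 of the 44 were measured, among 22180 genes in all. The other 2 were Ccne2, a cyclin of S phase entry, and Rfc4, a subunit of the clamp loader. Their only probe sets also read Ints8 and Eif4a2, so their signals belong to no single gene and they enter only where stated.

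The arrays measured RNA of LSK cells, the lineage-negative, Sca1-positive and Kit-positive fraction of bone marrow that holds blood stem cells and multipotent progenitors. Each of 4 groups had 3 arrays, all from C57BL/6 mice: wild type (Mll5+/+) or knockout (Mll5-/-, called mutant), each as mock, that is without NAC, or with N-acetyl-L-cysteine (NAC), a quencher of reactive oxygen species. NAC was in the drinking water at 1 g per liter from the mating of Mll5+/- parents and on through the life of their progeny, so it was given before birth as well as after. Mll5, now named Kmt2e, encodes a chromatin regulator, and the labels call it a knockout without naming a cell type, an age or the deleted stretch. Nor do they tell if the 3 arrays of a group stand for 3 mice, so a p-value here reflects the spread of these arrays alone, which may be technical.

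Before S phase the origin recognition complex, Cdc6 and Cdt1 load the ring of Mcm2 to Mcm7 on DNA. Cdc45 and the GINS complex then turn that ring into an active helicase, and polymerases alpha, delta and epsilon extend the new strands on the Pcna clamp. E2F factors and cyclin E with its kinase drive the switch, and many replication genes are E2F targets. Blood stem cells are mostly out of cycle, whereas the multipotent progenitors in the same gate divide often, so the summed RNA of these genes in LSK cells depends on which cells the gate holds.

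Words of the E2F site were searched on both strands in the 250 bases before the start of each gene, since members that share a switch may share these letters: TTTGGCGC, TTTCGCGC, TTTCCCGC and TTTGCCGC. Promoter sequences came from RefSeq (GRCm38.p6), where 35 of the 42 measured genes had an entry, and every entry of a gene was searched. A word stood in 9 of these 35 promoters (25.7%) and in 459 of 16990 promoters of all genes (2.70%). The 9 were Cdc6, Orc1, Mcm5, Mcm6, Mcm7, Gins3, Pola1, Rfc3 and Uhrf1. A match describes letters, not a bound site. The last 150 bases before the start are shown for 4 of the 9, 5′ to 3′ on the strand of the gene, with the word in capitals, and for Rrm1, which has no word and the smallest unadjusted p among members between the mock groups.
Cdc6 (chr11:98908001-98908150, plus strand): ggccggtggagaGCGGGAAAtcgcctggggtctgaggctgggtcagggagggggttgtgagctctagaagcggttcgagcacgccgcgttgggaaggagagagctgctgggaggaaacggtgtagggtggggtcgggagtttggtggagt
Orc1 (chr4:108579304-108579453, plus strand): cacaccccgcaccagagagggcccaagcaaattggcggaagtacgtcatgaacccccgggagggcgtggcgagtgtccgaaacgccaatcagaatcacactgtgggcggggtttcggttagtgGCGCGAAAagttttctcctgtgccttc
Mcm6 (chr1:128359706-128359855, minus strand): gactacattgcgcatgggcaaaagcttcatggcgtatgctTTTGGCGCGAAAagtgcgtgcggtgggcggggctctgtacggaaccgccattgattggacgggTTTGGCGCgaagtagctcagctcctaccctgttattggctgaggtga
Pola1 (chrX:93632156-93632305, minus strand): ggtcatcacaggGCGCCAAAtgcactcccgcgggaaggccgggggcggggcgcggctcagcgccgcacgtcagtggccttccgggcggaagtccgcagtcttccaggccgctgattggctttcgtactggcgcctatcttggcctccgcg
Rrm1 (chr7:102441545-102441694, plus strand): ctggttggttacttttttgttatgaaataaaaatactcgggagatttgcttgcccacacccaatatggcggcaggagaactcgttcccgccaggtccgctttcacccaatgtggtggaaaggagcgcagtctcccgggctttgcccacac
In Mcm6 the capitals hold 3 words, a pair of which overlap on opposite strands. The first base of the word lay at -138 in Cdc6 and in Pola1 and at -27 in Orc1, counted back from the start. CCAAT, the core letters of NF-Y sites, stood in 54.3% of member promoters and 38.7% of all, GGGCGG, the GC box, in 71.4% and 46.2%, and TTTGAA, the core letters of the CHR element of later cell cycle genes, in 11.4% and 16.1%.

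All 12 arrays had median log2 signals between 2.89 and 2.96. The arrays that stood apart were wild-type mock replicate 1 (array weight 0.710) and mutant NAC replicate 1 (0.541), and results without them are given where they differ. Kmt2e gave signals of 7.49, 7.39 and 7.68 in wild-type mock, 7.51, 7.38 and 6.93 in mutant mock, 7.37, 7.78 and 7.5 in wild-type NAC, and 7.02, 7.33 and 7.01 in mutant NAC. The genotypes overlapped in mock (difference -0.25, SE 0.17, adjusted p = 0.843) and not in NAC (-0.43, SE 0.17, adjusted p = 0.664), and over both treatments the difference was -0.34 (SE 0.12, adjusted p = 0.419). The labels do not give the deleted stretch, so the probe set may read RNA outside it and is no check of the labels. The LSK label was checked by Kit and Cd34, with means over 12 arrays of 9.05 and 10.36, while the 7 measured T and NK cell markers all lay below the median gene level of 3.17; the Sca1 gene was not measured on a probe set of its own. Myeloid progenitor markers such as Mpo (11.37) were also high.

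All 42 replication genes had mean signals above the median gene level, so each was readable. A probe set's brightness depends on its own probes, and no order between genes is read from it. Pooled within-group SDs of the members ran from 0.07 for Rrm1, the large subunit of ribonucleotide reductase, to 0.54 for Gins3, a GINS subunit. Their median was 0.17, beside 0.20 over all genes. The standard error of a difference between 2 groups was 0.11 for Rrm1 and 0.36 for Gins3, the ends of the members' range.

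The lowest levels of the replication genes as a set were those of wild-type mock cells. Their mean log2 signal was 6.86, 6.87 and 6.80 in the 3 wild-type mock arrays, 6.91, 6.93 and 7.09 in mutant mock, 6.99, 7.03 and 6.97 in wild-type NAC, and 7.03, 7.05 and 7.08 in mutant NAC. All 3 wild-type mock arrays were thus below the other 9, while the other 3 groups overlapped. The mean of all 22180 genes stayed between 3.99 and 4.01 in every array, and that of the 4462 genes with a mean signal above 6 between 7.26 and 7.37. Wild-type mock had the lowest of the 4 group means for 29 of the 42 genes, and mutant NAC had the highest for 21. In bulk RNA, fewer cycling cells and less of this RNA per cell cannot be told apart.

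**Figure D1:**
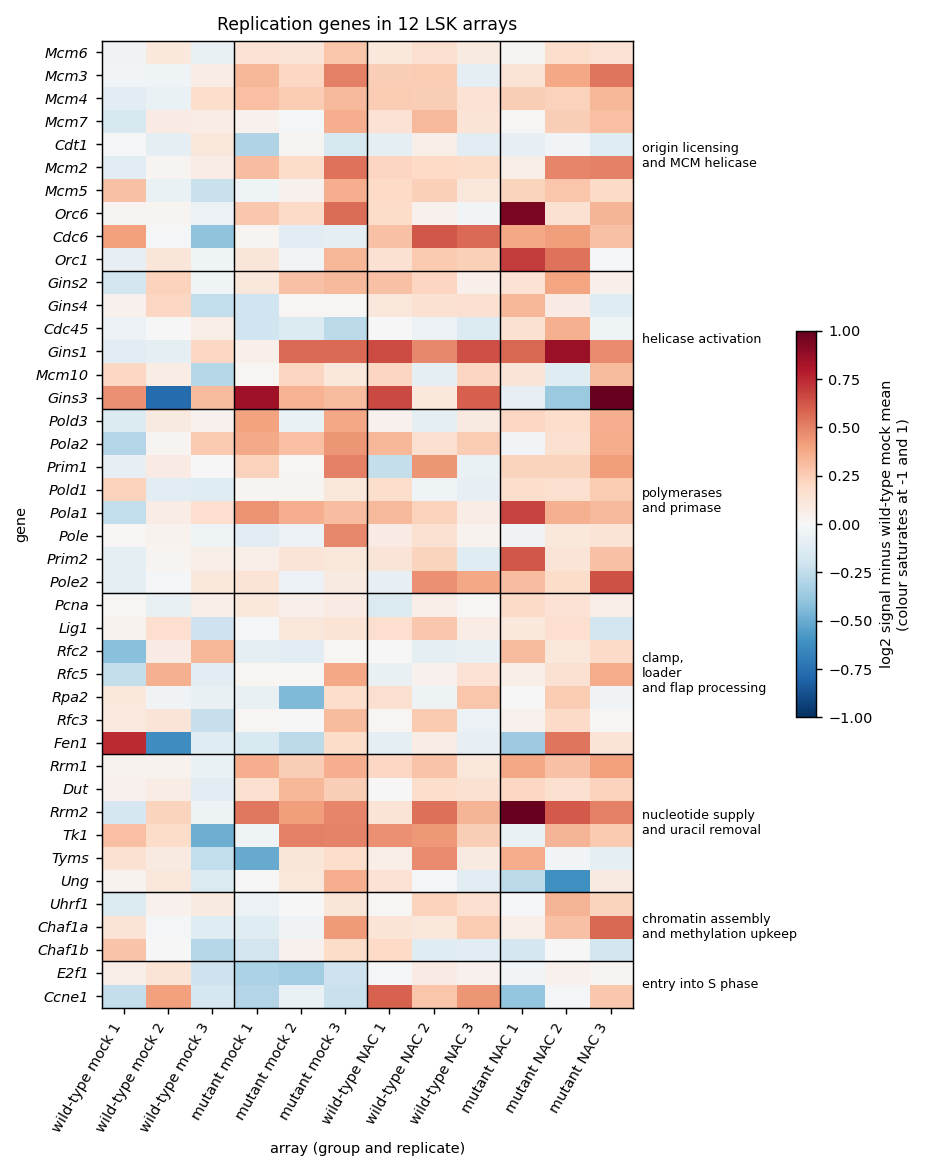
Log2 signal of each of the 42 measured replication genes (rows, grouped by role) in each of the 12 arrays (columns), as the difference from the mean of the wild-type mock arrays, coloured from -1 (blue) to 1 (red). Mutant mock replicate 3 lies above the 12-array median for 31 of the 42 genes and wild-type mock replicate 3 for 5.

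Single arrays carried unequal parts of this. Mutant mock replicate 3 lay above the 12-array median for 31 of 42 genes and held the highest value of all arrays for 10. Mutant mock replicates 1 and 2 lay above it for only 14 and 17. Wild-type mock replicate 3 lay above its genes' medians for 5 and held the lowest value for 14. Wild-type mock replicate 1 held the lowest value for 14 as well, and mutant NAC replicate 2 lay above the 12-array median for 34. Values without replicate 3 of either mock group follow beside the comparisons that use it.

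No replication gene passed an adjusted p under 0.05 in any of the 7 comparisons (limma, Benjamini-Hochberg over 22180 genes). Few genes of any kind did: 0.00902% between the genotypes in mock, 0.0% between them in NAC, 0.00451% for NAC in the mutant, 0.00902% for NAC in wild type, 0.0% for the interaction, 0.00902% for the genotype over both treatments and 0.00451% for NAC over both genotypes. Members are therefore described by counts and values, with the unadjusted p only as a count.

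Between the mock groups, which ask what loss of Mll5 changes without NAC, 32 of 42 replication genes were higher in the mutant and 10 lower. The median log2 difference was 0.12, beside 0.0033 over all genes, of which 50.2% were higher, and 0.04 over the genes with a mean signal above 6, of which 58.4% were higher. The genes of origin licensing, the polymerases and nucleotide supply made up most of the higher ones, with 8 of 10, 8 of 8 and 5 of 6, and medians of 0.16, 0.17 and 0.28. Both measured genes of S phase entry, E2f1 and Ccne1, were lower. Differences with an unadjusted p under 0.05 numbered 9 upward, 21.4% of members beside 3.55% of all genes and 4.95% of those above a signal of 6, and 1 downward beside 3.08%. Every mutant mock array lay above every wild-type mock array for 11 members, 26.2% beside 5.94% of all genes and 8.94% of those above a signal of 6. They were Orc6, Mcm2, Mcm3, Mcm4, Mcm6, Pola1, Pola2, Prim2, Rrm1, Rrm2 and Dut. Cdc45 alone lay wholly below, beside 1211 of all 22180 genes.

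The size of this shift rested on 1 array more than on the others. Without mutant mock replicate 3 the median was 0.048, with 27 members higher and 4 with an unadjusted p under 0.05 in either direction, in place of 10. Without wild-type mock replicate 3 the median was 0.098, with 28 higher and 8 with such a p. Without mutant mock replicate 2 the median was 0.18. Without wild-type mock replicate 1 the median was 0.16 but only 1 member had such a p, and without both arrays that stood apart 4 had.

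Between the NAC groups, which share no array with the mock groups, 25 members were higher in the mutant and 16 lower, and Mcm6 had the same mean in both. The median difference was 0.047, beside 0.0067 over all genes and 0.013 over those above a signal of 6. The polymerase genes were again mostly higher, 6 of 8 with a median of 0.205, while origin licensing had a median of 0.052 and nucleotide supply one of -0.017. Unadjusted p-values under 0.05 were found upward for 2 members (4.76%), beside 3.46% of all genes, and downward for 1, Ccne1, beside 3.71%. The mutant arrays all lay above the wild-type arrays for Pold3, Rfc2 and Rrm1. That was 7.14% of members, beside 6.39% of all genes and 10.1% of those above a signal of 6. These shares lie near the background. Without mutant NAC replicate 2 the median was 0.015 with 22 higher, and without wild-type NAC replicate 2 it was 0.085 with 30 higher. The polymerase count ranged from 5 to 8 of 8 over the alternatives.

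**Figure D2:**
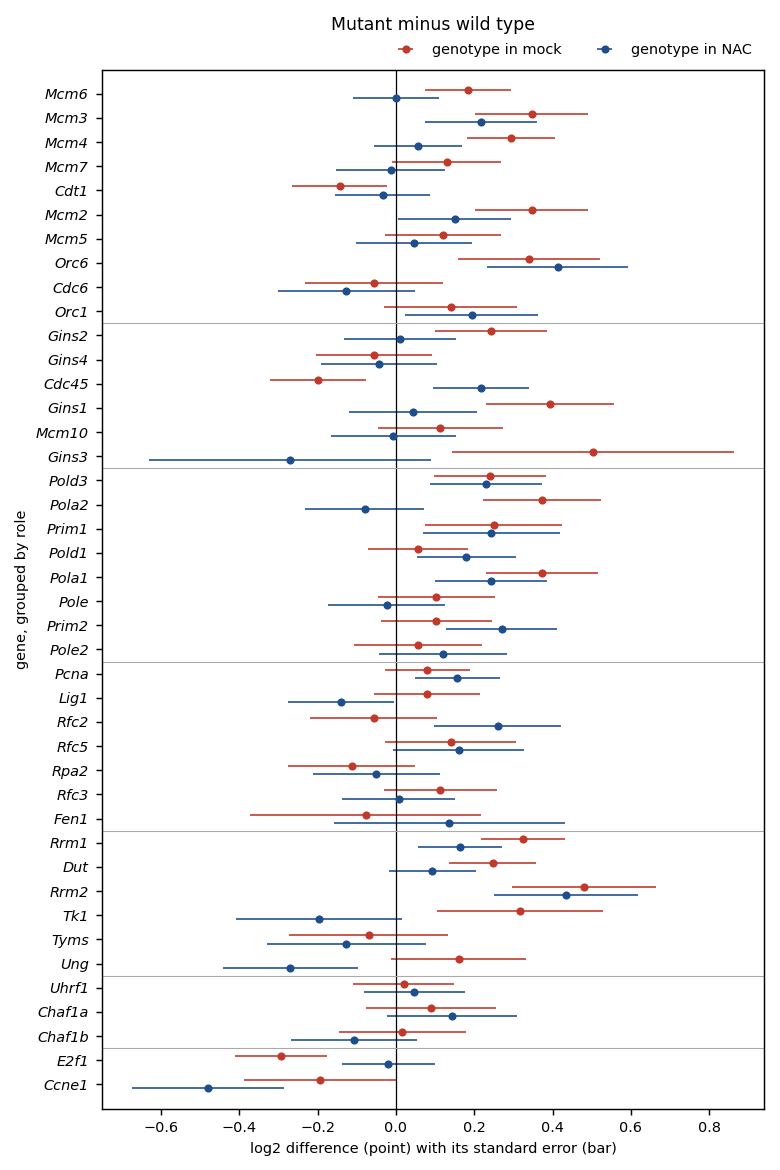
Log2 difference between mutant and wild type (x axis) of each measured replication gene (y axis, grouped by role), in mock (red) and in NAC (blue), with bars of 1 standard error. In mock 32 of 42 points lie right of 0 and in NAC 25 do, with E2f1 and Ccne1 left of 0 in both.

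NAC in wild-type cells went with higher signals of most replication genes. Of 42 members 36 were higher and 6 lower with NAC, with a median difference of 0.135 beside -0.0033 over all genes, of which 48.9% were higher, and 0.02 over those above a signal of 6. All 8 polymerase genes, all 6 nucleotide genes and 9 of 10 licensing genes were higher, with medians of 0.083, 0.205 and 0.19. The polymerase count fell to 7 of 8 without wild-type mock replicate 1, 2 or 3 or wild-type NAC replicate 1, 2 or 3, each left out alone, and without both arrays that stood apart. The nucleotide count fell to 5 of 6 without wild-type mock replicate 3 or wild-type NAC replicate 1. It did so too with array weights, with median centring and with averaged probe sets. The 7 clamp, loader and flap genes had a median of 0.037. Unadjusted p-values under 0.05 were found for 3 members upward (7.14%), beside 2.96% of all genes, and for 0 members downward, beside 2.96%. The NAC arrays all lay above the mock arrays for Orc1, Mcm2, Mcm7, Gins1 and Rrm1. That was 11.9% of members, beside 5.42% of all genes and 8.49% of those above a signal of 6. Without wild-type mock replicate 3 the median was 0.088 with 33 higher. This comparison shares the wild-type mock arrays with the genotype comparison in mock, so the counts of both are not independent.

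NAC in mutant cells went with a smaller median difference than in wild type when all arrays were kept. The median was 0.062, with 29 members higher and 13 lower, beside a median of 0 over all genes. Upward unadjusted p-values under 0.05 numbered 3 (7.14%), beside 2.68% of all genes, and downward 1, Ung, beside 3.18%. The mutant NAC arrays all lay above the mutant mock arrays for Cdc6, Cdc45, Pold1, Pole2, Rfc2 and E2f1. That was 14.3% of members, beside 5.08% of all genes and 6.23% of those above a signal of 6. Without mutant mock replicate 3 the median was 0.16, with 31 higher, and so was no longer below the 0.135 of NAC in wild type.

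**Figure D3:**
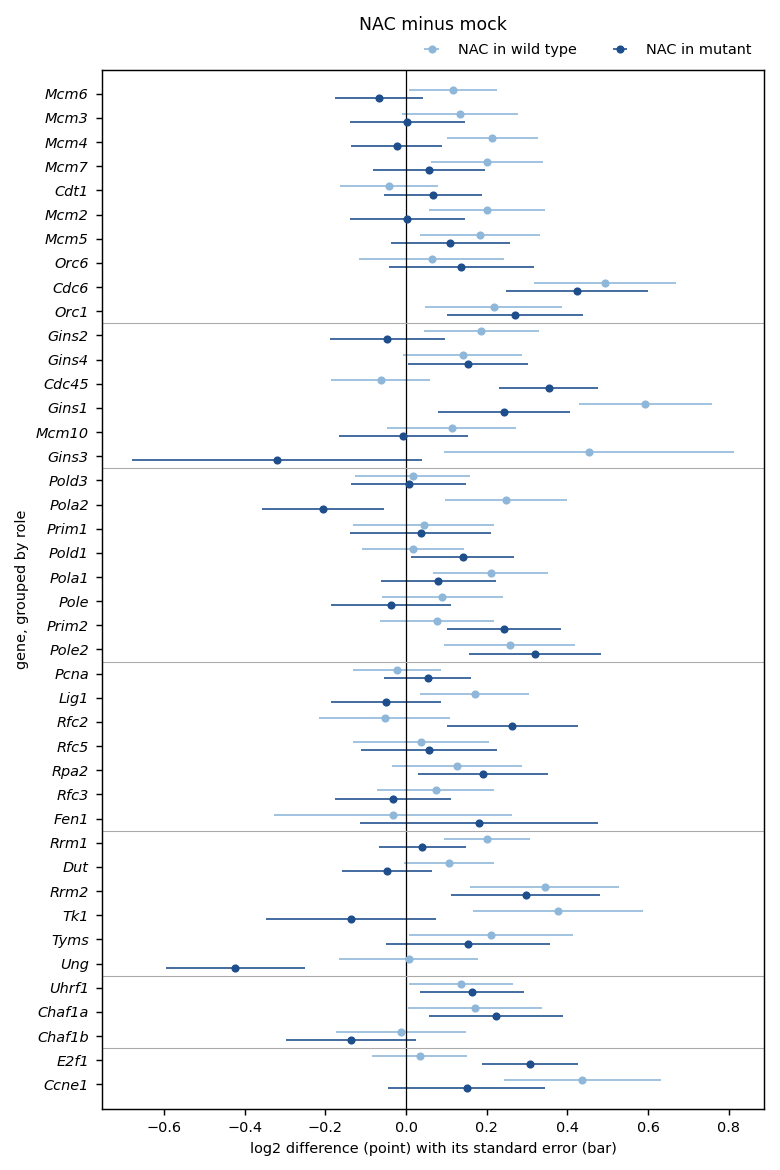
Log2 difference between NAC and mock (x axis) of each measured replication gene (y axis, grouped by role), in wild type (light blue) and in the mutant (dark blue), with bars of 1 standard error. In wild type 36 of 42 points lie right of 0 and in the mutant 29 do, and Cdc6 lies at 0.49 and 0.42.

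The interaction, the genotype difference in NAC minus that in mock, was below 0 for 26 members and above 0 for 16, with a median of -0.072 beside 0 over all genes. Only Cdc45 had an unadjusted p under 0.05 upward, beside 2.02% of all genes, and 0 members had one downward, beside 2.2%. All 6 nucleotide genes were below 0, from -0.05 for Rrm2 to -0.51 for Tk1, and 4 to 6 of them were over the alternatives. On the dimmer probe sets of Rrm2 and Dut the interaction was 0.58 (SE 0.32) and 0.22 (SE 0.28). The shared sign thus rests on the probe sets used. The sign of the median turned when mutant mock replicate 3 was left out (0.022) and when wild-type mock replicate 3 was (0.0008). A genotype effect that differs between mock and NAC was thus not detectable for these genes with 12 arrays.

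Averaged over both treatments, the mutant had higher signals for 32 members and lower for 10, with a median of 0.097 beside 0.0033 over all genes. Unadjusted p-values under 0.05 were found for 8 upward, 19.0% of members beside 4.74% of all genes and 9.32% of genes above a signal of 6, and for Ccne1 downward, beside 4.34% and 5.67%. The 8 were Rrm2, Rrm1, Pola1, Orc6, Mcm3, Mcm2, Pold3 and Mcm4, so they came from licensing, the polymerases and the reductase. Without mutant mock replicate 3 the median was 0.074, with 29 higher and 5 with such a p upward, and without wild-type mock replicate 3 it was 0.087, with 29 higher and 9 upward. Averaged over both genotypes, NAC gave higher signals for 40 of 42 members, with a median of 0.10 beside -0.0017. The 2 lower ones were Ung and Chaf1b, a subunit of chromatin assembly factor 1. Leaving out single arrays gave 36 to 40 higher. Upward unadjusted p-values under 0.05 numbered 4 (9.52%), beside 3.55% of all genes and 6.52% of those above a signal of 6, for Cdc6, Gins1, Pole2 and Rrm2, and downward 0, beside 3.88%. Without both arrays that stood apart the median for the genotype was 0.10 and that for NAC 0.11.

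Among the licensing genes, Orc6, a small subunit of the origin recognition complex, had a higher mean in the mutant in both treatments. Orc6 gave log2 signals of 6.71, 6.71 and 6.62 in wild-type mock, 6.95, 6.87 and 7.24 in mutant mock, 6.86, 6.72 and 6.65 in wild-type NAC, and 7.62, 6.83 and 7.02 in mutant NAC. Its mutant mock arrays lay above all wild-type mock arrays, whereas with NAC the mutant value of 6.83 lay among the wild-type values. In mock the genotypes differed by 0.34 (SE 0.18, adjusted p = 0.799), with NAC by 0.41 (SE 0.18, adjusted p = 0.682), and over both by 0.38 (SE 0.13, adjusted p = 0.391). Without mutant NAC replicate 1, which gave the 7.62, the difference in NAC was 0.18. With NAC in wild type Orc6 differed by 0.06 (SE 0.18).

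Cdc6, the loader that brings the Mcm ring to origins, had a higher mean with NAC in both genotypes. Cdc6 gave log2 signals of 6.85, 6.43 and 6.04 in wild-type mock, 6.47, 6.33 and 6.35 in mutant mock, 6.73, 7.06 and 7.01 in wild-type NAC, and 6.83, 6.86 and 6.73 in mutant NAC. The mutant NAC arrays all lay above the mutant mock arrays, and the wild-type groups overlapped through the single mock value of 6.85. The difference with NAC was 0.49 (SE 0.18, adjusted p = 0.753) in wild type, 0.42 (SE 0.18, adjusted p = 0.829) in the mutant and 0.46 (SE 0.12, adjusted p = 0.4) over both genotypes, a 1.37-fold higher signal. Wild-type mock replicate 1, which holds that high value, stood apart. Without it and mutant NAC replicate 1 the differences were 0.70 in wild type and 0.56 over both, with adjusted p = 0.26 and 0.182. Without wild-type mock replicate 3, the lowest array, the difference in wild type was 0.29. Between genotypes Cdc6 differed by -0.06 (SE 0.18) in mock and -0.13 (SE 0.18) in NAC.

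All 6 subunits of the Mcm ring had a positive difference in mutant mock cells, from 0.12 for Mcm5 to 0.35 for Mcm2 and Mcm3. Without mutant mock replicate 3 Mcm5 and Mcm7 were at 0 and 0.013, while the other 4 were at 0.14 to 0.28. Mcm6 gave log2 signals of 9.12, 9.26 and 9.08 in wild-type mock, 9.30, 9.28 and 9.43 in mutant mock, 9.26, 9.31 and 9.24 in wild-type NAC, and 9.18, 9.33 and 9.30 in mutant NAC. All 3 mutant mock values exceeded all 3 wild-type mock values, by a difference of 0.18 (SE 0.11, adjusted p = 0.827), and with NAC the genotype means were equal. Mcm2 went from 7.18 ± 0.09 (SD, n = 3) in wild-type mock to 7.53 ± 0.18 in mutant mock, and was 7.38 ± 0.02 and 7.53 ± 0.25 with NAC. Mcm4 went from 8.09 ± 0.15 to 8.38 ± 0.04 in mock and was 8.30 ± 0.06 and 8.36 ± 0.06 with NAC, so its wild-type level with NAC was near both mutant levels. In mock Mcm2 differed by 0.35 (SE 0.14, adjusted p = 0.721), Mcm3 by 0.35 (SE 0.14, adjusted p = 0.721) and Mcm4 by 0.29 (SE 0.11, adjusted p = 0.7). Cdt1, the other loading factor, went the other way, with -0.14 (SE 0.12, adjusted p = 0.872) in mock.

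Of the helicase activators, Gins1, a GINS subunit, had the lowest adjusted p of any member for NAC in wild type. Gins1 gave log2 signals of 5.77, 5.78 and 6.08 in wild-type mock, 5.93, 6.44 and 6.44 in mutant mock, 6.53, 6.36 and 6.52 in wild-type NAC, and 6.45, 6.74 and 6.35 in mutant NAC. The wild-type NAC arrays all lay above the wild-type mock arrays, and the mutant arrays of both treatments spread from 5.93 to 6.74. The difference was 0.59 (SE 0.16, adjusted p = 0.543) with NAC in wild type, a 1.51-fold higher signal, 0.39 (SE 0.16, adjusted p = 0.721) with the genotype in mock and 0.24 (SE 0.16, adjusted p = 0.912) with NAC in the mutant. Gins2, its partner in the complex, was steadier. Gins2 gave log2 signals of 7.89, 8.31 and 8.03 in wild-type mock, 8.19, 8.37 and 8.40 in mutant mock, 8.37, 8.29 and 8.13 in wild-type NAC, and 8.22, 8.47 and 8.13 in mutant NAC. Its groups all overlapped, and its difference was 0.24 (SE 0.14, adjusted p = 0.827) between the mock groups, against 0.19 (SE 0.14, adjusted p = 0.902) with NAC in wild type.

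Cdc45, which binds the Mcm ring and GINS, was the member with the lowest p for the interaction. Cdc45 gave log2 signals of 6.66, 6.71 and 6.78 in wild-type mock, 6.52, 6.58 and 6.45 in mutant mock, 6.72, 6.66 and 6.58 in wild-type NAC, and 6.87, 7.07 and 6.67 in mutant NAC. The 3 mutant mock values lay below all 3 wild-type mock values and below all mutant NAC values. The genotype difference was -0.20 (SE 0.12, adjusted p = 0.83) in mock cells, against 0.22 (SE 0.12, adjusted p = 0.748) with NAC, so the interaction was 0.42 (SE 0.17, adjusted p = 0.999). It was 0.32 to 0.52 under every alternative that gave a value, with a lowest adjusted p of 0.954. Gins3, another subunit, ran from 4.33 to 5.56 within wild-type mock, and its mock difference of 0.50 (SE 0.36, adjusted p = 0.848) lies within its error.

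**Figure D4:**
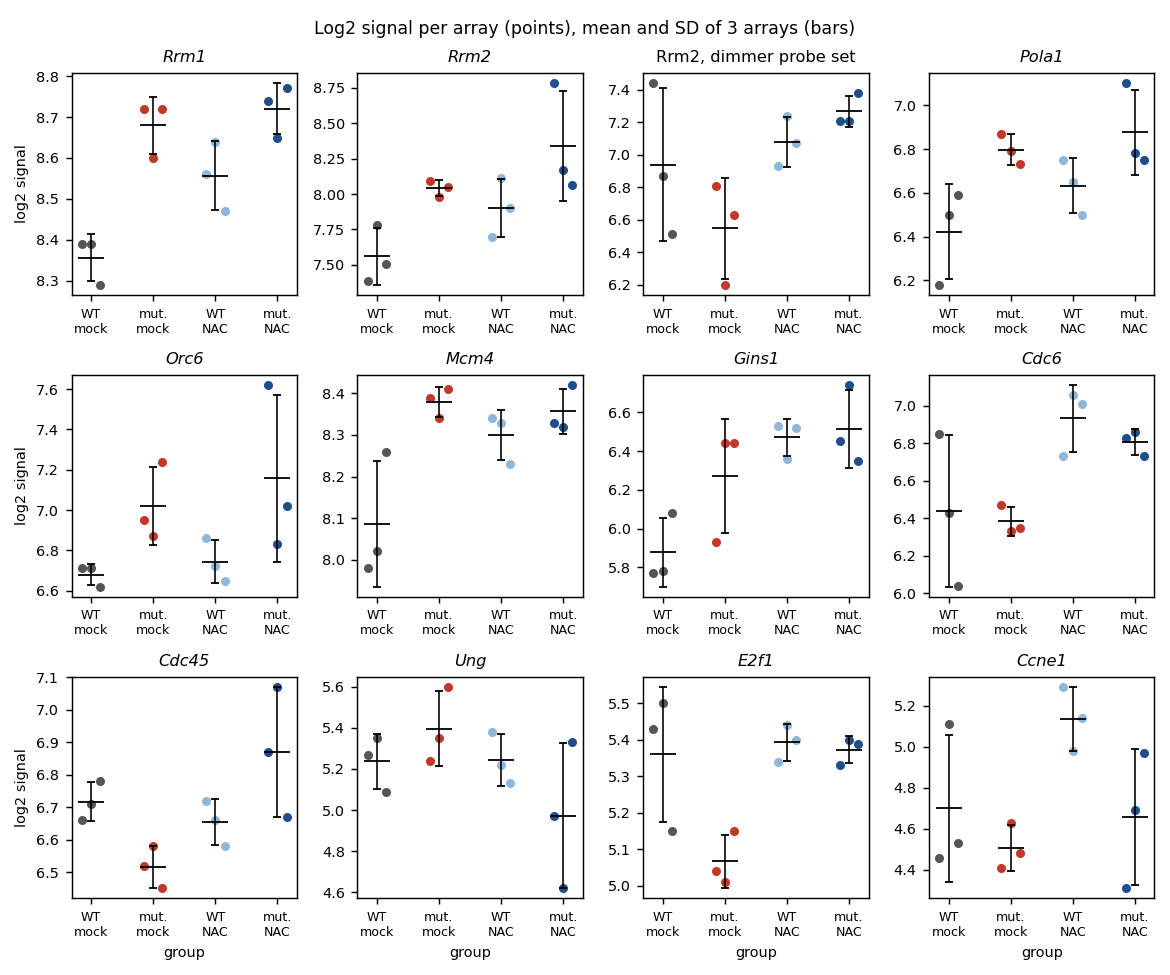
Log2 signal per array (points, y axis, a scale of its own in each panel that does not start at 0) with the mean and SD of 3 arrays (bars) in the 4 groups (x axis), for 11 replication genes and for the dimmer probe set of Rrm2. Rrm1, Pola1 and Mcm4 are lowest in wild-type mock, Cdc6 is higher in both NAC groups, and the 2 probe sets of Rrm2 differ between wild-type and mutant mock.

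All 8 genes of polymerases and primase were higher in mutant than in wild-type mock cells, and 7 of 8 without mutant mock replicate 3 or without wild-type mock replicate 3. Without the former Pole, the catalytic subunit of polymerase epsilon, was at -0.09. Pola1 encodes the catalytic subunit of polymerase alpha, which with primase starts each new strand. Pola1 gave log2 signals of 6.18, 6.50 and 6.59 in wild-type mock, 6.87, 6.79 and 6.73 in mutant mock, 6.75, 6.65 and 6.50 in wild-type NAC, and 7.10, 6.78 and 6.75 in mutant NAC. The mutant mock arrays lay above all wild-type mock arrays, and with NAC the groups met at 6.75. The difference was 0.37 (SE 0.14, adjusted p = 0.698) in mock, 0.24 (SE 0.14, adjusted p = 0.766) in NAC and 0.31 (SE 0.10, adjusted p = 0.375) over both. Pola2, the second subunit of polymerase alpha, matched it in mock and not in NAC. Pola2 gave log2 signals of 6.46, 6.78 and 7.01 in wild-type mock, 7.13, 7.05 and 7.19 in mutant mock, 7.08, 6.91 and 7.0 in wild-type NAC, and 6.72, 6.91 and 7.12 in mutant NAC. Its genotype difference was 0.37 (SE 0.15, adjusted p = 0.721) in mock cells, against -0.08 (SE 0.15, adjusted p = 0.951) with NAC, and the interaction was -0.45 (SE 0.21, adjusted p = 0.999). Without wild-type mock replicate 1, which gave the 6.46, the mock difference of Pola2 was 0.23, and without both arrays that stood apart its interaction was -0.21 and the difference of Pola1 over both treatments 0.19. Pola1 and Pola2 encode parts of a single enzyme, and their interaction terms were -0.13 and -0.45.

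Pold3, an accessory subunit of polymerase delta, had a higher mean in the mutant in both treatments. Pold3 gave log2 signals of 6.76, 6.99 and 6.94 in wild-type mock, 7.30, 6.83 and 7.28 in mutant mock, 6.94, 6.81 and 6.99 in wild-type NAC, and 7.10, 7.07 and 7.26 in mutant NAC. Mutant values lay above wild-type values in all NAC arrays, and in mock a single mutant array (6.83) overlapped. The difference was 0.24 (SE 0.14, adjusted p = 0.827) in mock, 0.23 (SE 0.14, adjusted p = 0.783) in NAC and 0.23 (SE 0.10, adjusted p = 0.514) over both. Pole2, the second subunit of polymerase epsilon, had a higher mean with NAC in both genotypes. Pole2 gave log2 signals of 5.40, 5.49 and 5.61 in wild-type mock, 5.64, 5.44 and 5.59 in mutant mock, 5.42, 5.96 and 5.89 in wild-type NAC, and 5.81, 5.68 and 6.14 in mutant NAC. The NAC difference was 0.26 (SE 0.16, adjusted p = 0.882) in wild type, 0.32 (SE 0.16, adjusted p = 0.877) in the mutant and 0.29 (SE 0.12, adjusted p = 0.591) over both genotypes. The mutant groups did not overlap, while a wild-type NAC array at 5.42 lay among the mock arrays. Prim2, the large primase subunit, had mutant mock arrays above wild-type mock arrays by only 0.10 (SE 0.14, adjusted p = 0.933).

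The sliding clamp and its helpers differed little. Pcna, the clamp that holds polymerases on DNA, stayed between 9.93 and 10.27 over the 12 arrays. Pcna gave log2 signals of 10.09, 10 and 10.14 in wild-type mock, 10.18, 10.13 and 10.16 in mutant mock, 9.93, 10.14 and 10.09 in wild-type NAC, and 10.27, 10.22 and 10.14 in mutant NAC. Every pair of groups compared overlapped, and its genotype difference was 0.08 (SE 0.11, adjusted p = 0.933) in mock cells, against 0.16 (SE 0.11, adjusted p = 0.803) with NAC. The 7 measured genes of clamp, loader and flap processing had medians from 0.037 to 0.14 in the 4 comparisons between single groups. None of them had an unadjusted p under 0.05 in any of the 7 comparisons. Fen1, the flap nuclease, spread from 4.71 to 6.08 within wild-type mock, so its differences carry a standard error of 0.30.

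Among the nucleotide genes, Rrm1 had arrays that separated by genotype in both treatments. It encodes the large subunit of ribonucleotide reductase, the enzyme that makes deoxynucleotides. Rrm1 gave log2 signals of 8.39, 8.39 and 8.29 in wild-type mock, 8.72, 8.60 and 8.72 in mutant mock, 8.56, 8.64 and 8.47 in wild-type NAC, and 8.74, 8.65 and 8.77 in mutant NAC. All mutant arrays lay above all wild-type arrays within each treatment, and across treatments a wild-type NAC array (8.64) lay above a mutant mock array (8.60). The difference was 0.32 (SE 0.11, adjusted p = 0.648) in mock, a 1.25-fold higher signal, 0.16 (SE 0.11, adjusted p = 0.799) in NAC and 0.24 (SE 0.08, adjusted p = 0.347) over both. In mock it was 0.29 to 0.36 under every alternative that gave a value, with a lowest adjusted p of 0.571. NAC in wild type also separated Rrm1, by 0.20 (SE 0.11, adjusted p = 0.873), and in the mutant the difference was 0.04 (SE 0.11).

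Rrm2, the small subunit, whose amount limits the enzyme, was read by 2 probe sets that disagree. Rrm2 on the brighter probe set gave log2 signals of 7.39, 7.78 and 7.51 in wild-type mock, 8.09, 7.98 and 8.05 in mutant mock, 7.70, 8.11 and 7.90 in wild-type NAC, and 8.78, 8.17 and 8.06 in mutant NAC. There the genotype difference was 0.48 (SE 0.18, adjusted p = 0.7) in mock, 0.43 (SE 0.18, adjusted p = 0.677) in NAC and 0.46 (SE 0.13, adjusted p = 0.315) over both, the smallest adjusted p of any member in any comparison. Without mutant NAC replicate 1, which gave the 8.78, the genotype difference in NAC was 0.21, and without both arrays that stood apart that over both treatments was 0.30. The dimmer probe set gave 7.44, 6.87 and 6.51 in wild-type mock and 6.81, 6.20 and 6.63 in mutant mock, a difference of -0.39 (SE 0.23). In NAC its genotype difference was 0.19, and NAC in the mutant differed by 0.72 there and by 0.30 on the brighter set. With the mean of both probe sets the mock difference was 0.043, so a genotype difference of Rrm2 rests on the choice of probe set. The positive NAC difference appeared in both sets, with 0.34 and 0.14 in wild type.

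Of the other nucleotide genes, Dut, which clears dUTP, was higher in mutant mock cells by 0.25 (SE 0.11, adjusted p = 0.744), without overlap (8.20 ± 0.09 beside 7.96 ± 0.10, SD, n = 3). Its second, far dimmer probe set differed by only 0.04. Tk1, the thymidine salvage kinase, spread from 6.51 to 7.30 within wild-type mock and differed by 0.32 (SE 0.21, adjusted p = 0.837). Ung, the glycosylase that removes uracil from DNA, was lower with NAC in the mutant, unlike most of the set. Ung gave log2 signals of 5.27, 5.35 and 5.09 in wild-type mock, 5.24, 5.35 and 5.60 in mutant mock, 5.38, 5.22 and 5.13 in wild-type NAC, and 4.97, 4.62 and 5.33 in mutant NAC. The mutant groups overlapped through the NAC value of 5.33, and the difference with NAC was -0.42 (SE 0.17, adjusted p = 0.829) in the mutant and 0.01 (SE 0.17, adjusted p = 0.997) in wild type. Without mutant NAC replicate 2, which gave the 4.62, the difference in the mutant was -0.25.

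The chromatin genes differed little. Uhrf1 recognises hemimethylated DNA behind the fork and brings in the maintenance methyltransferase. Uhrf1 gave log2 signals of 7.80, 7.98 and 8.03 in wild-type mock, 7.88, 7.93 and 8.06 in mutant mock, 7.95, 8.17 and 8.10 in wild-type NAC, and 7.92, 8.28 and 8.16 in mutant NAC. Its groups overlapped in all 4 comparisons between single groups, with 0.02 (SE 0.13, adjusted p = 0.987) for the genotype in mock and 0.14 (SE 0.13, adjusted p = 0.92) for NAC in wild type. Chaf1a and Chaf1b, subunits of chromatin assembly factor 1, gave 0.20 (SE 0.12) and -0.07 (SE 0.11) with NAC over both genotypes.

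Both measured regulators of S phase entry had lower means in the mutant, as did 8 other members in mock and 14 others in NAC. E2f1 encodes a transcription factor that switches on replication genes. E2f1 gave log2 signals of 5.43, 5.50 and 5.15 in wild-type mock, 5.04, 5.01 and 5.15 in mutant mock, 5.34, 5.44 and 5.40 in wild-type NAC, and 5.33, 5.40 and 5.39 in mutant NAC. Mutant mock held the 3 lowest values, with a tie at 5.15 to a wild-type mock array. The difference was -0.29 (SE 0.12, adjusted p = 0.721) with the genotype in mock, -0.02 (SE 0.12, adjusted p = 0.985) with it in NAC and 0.31 (SE 0.12, adjusted p = 0.829) with NAC in the mutant. In mock, then, 32 of the replication genes were higher in the mutant and E2f1 was among the 10 lower, while in NAC its difference lay within its error.

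Ccne1 encodes cyclin E1, which with its kinase drives entry into S phase. Ccne1 gave log2 signals of 4.46, 5.11 and 4.53 in wild-type mock, 4.41, 4.63 and 4.48 in mutant mock, 5.29, 4.98 and 5.14 in wild-type NAC, and 4.31, 4.69 and 4.97 in mutant NAC. With NAC all mutant arrays lay below all wild-type arrays, by -0.48 (SE 0.19, adjusted p = 0.667), and in mock the groups overlapped, with -0.19 (SE 0.19, adjusted p = 0.904). Without mutant NAC replicate 1 the difference in NAC was -0.31. NAC in wild type gave 0.44 (SE 0.19, adjusted p = 0.843). The probe set that reads Ccne2 together with Ints8 had genotype differences of 0.047 in mock and 0.47 in NAC, opposite in sign to Ccne1. The set that reads Rfc4 together with Eif4a2 had 0.06 and 0.32.

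The 9 members with an E2F word did not stand out between genotypes. In mock their median difference was 0.13, beside 0.10 in the 26 without, and in NAC it was 0.0067 beside 0.13. With NAC in wild type all 9 were higher with a median of 0.20, beside 21 of 26 with a median of 0.11. These are descriptions of small groups, without a test.

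Other genes of the same pathway, none of them in the set, were also mostly higher in mutant mock and with NAC in wild type. Of 45 measured genes of a wider replication list, 33 were higher in mutant mock with a median of 0.12, and 27 in mutant NAC with a median of 0.04. With NAC 32 were higher in wild type with a median of 0.12, and 25 in the mutant with a median of 0.01. None passed an adjusted p under 0.05 (limma). In mock 5 had an unadjusted p under 0.05 upward, 11.1% beside 3.55% of all genes, and 0 downward, beside 3.08%. Over both treatments 9 had such a p upward, 20% beside 4.74% of all genes, and 3 downward, Donson (-0.48), Rrm2b (-0.36) and Cdk2 (-0.27), 6.67% beside 4.34%. Tipin, a fork protection factor, had the lowest p over both treatments. It gave 7.13, 6.91 and 7.32 in wild-type mock, 7.67, 7.30 and 7.98 in mutant mock, 7.59, 7.27 and 7.53 in wild-type NAC, and 8.03, 7.88 and 7.85 in mutant NAC. Its genotype difference was 0.49 (SE 0.12, adjusted p = 0.261), without overlap in NAC. Dtymk, the thymidylate kinase, differed by 0.35 (SE 0.11, adjusted p = 0.368), and Nasp, a histone chaperone, by 0.26 (SE 0.09, adjusted p = 0.411).

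Genes of G2 and M phase, a later step of the cycle, were also higher: 24 of 28 in mutant mock with a median of 0.19, 22 in mutant NAC with a median of 0.078, 24 with NAC in wild type with a median of 0.18 and 24 with NAC in the mutant with a median of 0.10. Among all genes 50.2%, 50.7%, 48.9% and 49.6% were higher in these comparisons, in the same order. None of the 28 passed an adjusted p under 0.05. An unadjusted p under 0.05 upward was found for 2 in mock (7.14%, beside 3.55% of all genes), 4 in NAC (14.3%, beside 3.46%), 1 for NAC in wild type (3.57%, beside 2.96%) and 0 for NAC in the mutant (beside 2.68%), with 0 downward in each. Over both treatments 8 had such a p upward (28.6%, beside 4.74%) and 0 downward. Mutant mock replicate 3, the highest mock array for replication genes, had the lowest mean of mitotic genes in its group, 7.36 beside 7.52 and 7.44. The wild-type mock arrays had means of 7.22, 7.47 and 7.12, so the mock groups overlapped.

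Markers of cell types inside and beside the LSK gate also differed along the groups. Of 4 LSK markers Flt3, a receptor of multipotent progenitors, differed most, with means of 9.04 in wild-type mock, 8.44 in mutant mock, 8.73 in wild-type NAC and 7.85 in mutant NAC. Its genotype difference was -0.60 (SE 0.24, adjusted p = 0.721) in mock cells, against -0.88 (SE 0.24, adjusted p = 0.529) with NAC, and NAC in the mutant gave -0.59 (SE 0.24, adjusted p = 0.829). Of the 4 markers, 2 were higher and 2 lower in mutant mock, and 1 was higher and 3 lower in mutant NAC. Cd48 was that 1, with means of 8.24 and 8.31 in wild-type and mutant mock and 8.22 and 8.44 with NAC. The mean log2 signal of the 4 was 9.09 to 9.39 in wild-type mock, 9.01 to 9.22 in mutant mock, 9.02 to 9.14 in wild-type NAC and 8.60 to 8.95 in mutant NAC, which lay below all other groups. Stem cell markers were higher in mutant mock for 7 of 9 with a median of 0.27, higher in mutant NAC for 7 of 9 with 0.36, and lower with NAC in wild type for 8 of 9 with -0.26. Hlf, the brightest of the 9, and Mecom were lower in the mutant in both treatments. Hlf had means of 7.66 and 7.36 in wild-type and mutant mock and 7.23 and 6.92 with NAC. The summed linear signal of the 9 was 329 to 437 in wild-type mock, 353 to 444 in mutant mock, 312 to 331 in wild-type NAC and 296 to 359 in mutant NAC. Its group means were 400 and 399 in wild-type and mutant mock and 321 and 322 with NAC, so the sums did not differ by genotype. Committed myeloid progenitor markers were lower in mutant mock for 9 of 10 with a median of -0.445, and higher with NAC for 10 of 10 in wild type with 0.535 and for 8 of 10 in the mutant with 0.63. Their summed signal was 5832 to 11513 in wild-type mock, 3702 to 9074 in mutant mock, 9702 to 11309 in wild-type NAC and 7450 to 10843 in mutant NAC. Mutant mock replicate 3 had the lowest myeloid sum of all arrays and the highest mean of the replication genes. Wild-type mock replicate 1 had the highest myeloid sum, and its replication mean of 6.86 lay between those of the other arrays of its group. The part of these cell types in the replication signals was not tested.

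Markers of other lineages differed too. All 7 megakaryocyte markers were higher in the mutant in both treatments, with medians of 0.30 and 0.67, and summed signals of 217 to 276 in wild-type mock, 283 to 454 in mutant mock, 210 to 236 in wild-type NAC and 388 to 475 in mutant NAC, without overlap between the genotypes. Selp, the platelet P-selectin, was the only gene of any marker list past the threshold, with means of 4.78 and 6.26 in mock and 5.03 and 6.50 in NAC, so over both treatments the mutant was 1.48 higher (SE 0.18, adjusted p = 0.0269). Over 21 alternatives that adjusted p ran from 0.00297 to 0.136 and passed in 10. Of the arrays left out singly, it passed without mutant mock replicate 3, wild-type NAC replicate 3 or mutant NAC replicate 1 and not without any of the other 9. Among erythroid markers 4 of 5 were higher with NAC in each genotype, with medians of 0.093 in wild type and 0.21 in the mutant. Rhag and Slc4a1, both among the higher ones, lay below the median gene level. Neutrophil markers were lower in mutant mock for 6 of 8, with a median of only -0.073. Their summed signals were 156 to 610 beside 628 to 881 in wild-type mock. The large drops were those of S100a8, the brightest of the list (-1.61), and S100a9, with means of 4.87 beside 6.25 in wild-type mock. Itgam (5.91 beside 5.74) and Lcn2 (3.17 beside 2.99) were higher in mutant mock. Ltf, Camp and Ngp, which mark mature neutrophils, and Mmp8 were lower but lay below the median gene level. B cell markers were lower in mutant NAC for 7 of 7 with a median of -0.19, and Vpreb1 and Ebf1 lay below the median gene level. The part of these lineages was not tested either.

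**Figure D5:**
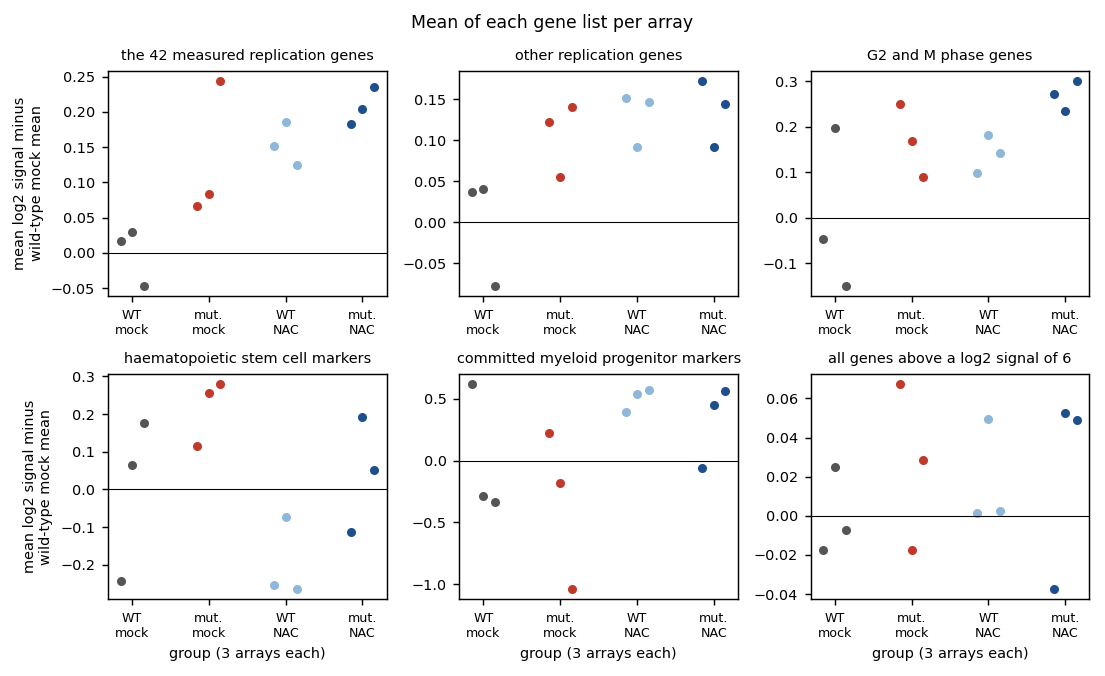
Mean log2 signal of 6 gene lists per array (points, y axis) as the difference from the wild-type mock mean, in the 4 groups (x axis), with a scale of its own in each panel. The 42 replication genes run from -0.05 to 0.03 in wild-type mock and from 0.07 to 0.24 elsewhere, while myeloid progenitor markers span -1.04 to 0.62.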

How the data were processed

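Biotin-labelled total RNA of sorted LSK cells was hybridised to 12 Affymetrix arrays. The authors deposited log2 signals per probe set. Per the submitters' processing notes these came from RMA in Affymetrix Power Tools, with versions not given in the sources used here. This method normalises arrays by quantiles, so amounts of RNA per cell are not measured. Base 2 of the logarithm was inferred from values of 0.74 to 13.23.

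Of 41345 probe sets, 23521 carried 1 gene symbol and 1814 several. The brightest per symbol gave 22180 genes, with no filter on dim ones. With limma 3.58.1 (R 4.3.3; lmFit, eBayes) group means were fitted over the 12 arrays, and p-values of each of 7 comparisons were adjusted by Benjamini-Hochberg over all genes, with a threshold of 0.05. The procedure was tested on simulated data. Precision is limited by the number of arrays.

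The replication genes and all other lists were chosen with earlier results of these data known, so their counts are descriptions. Values in every array were given for the 3 smallest p per comparison and the brightest gene per role. Other genes named had an unadjusted p under 0.05 or were picked once their values were known. Alternatives were leaving out arrays, array weights, a filter at the median gene level, median centring, a further quantile normalization, a robust variance with trend, averaged probe sets, all probe sets, the array number as a replicate block, fits of the compared groups alone, and a threshold of 0.10. Adding genes on shared probe sets and leaving out Rrm2 were chosen after seeing the data.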

Additional observations from a re-analysis of the deposited data

How the results depend on the processing

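No replication gene passed an adjusted p under 0.05 in any comparison under any alternative run. No replication gene with an unadjusted p under 0.05 changed the sign of that difference under an alternative. No alternative read Rrm2 from its dimmer probe set alone, where the genotype difference was -0.39 in mock and -0.10 over both treatments. Of all 42 genes 23 changed sign for the interaction and 14 to 17 in each of the other comparisons, all with reported differences of at most 0.29 in size. Over these alternatives, all genes past the threshold numbered 0 to 4 between the genotypes in mock, 0 to 5 in NAC, 0 to 3 for NAC in the mutant, 1 to 5 for NAC in wild type, 0 to 2 for the interaction, 1 to 12 for the genotype over both treatments and 1 to 4 for NAC over both genotypes. The numbers of the arrays gave no sign of pairs: deviations of 18 same-numbered pairs correlated at -0.0572 to 0.0564. Such correlations cannot exclude that same-numbered arrays were handled together. The replicate block gave 9 replication genes with an unadjusted p under 0.05 between the genotypes in mock in place of 10, and 2 for the interaction in place of 1, and called none. Counts with an unadjusted p under 0.05 moved with other settings too. Without both arrays that stood apart the count was 4 in mock, 1 for the genotype in NAC and 2 for the interaction. Array weights and a fit of only the compared groups each left 1 for the genotype in NAC, and a further quantile normalization gave 2 for the interaction. Leaving out each array in turn gave counts of 1 to 11 for the genotype in mock, 0 to 6 in NAC, 2 to 6 for NAC in the mutant, 0 to 4 for the interaction, 5 to 11 for the genotype over both treatments and 2 to 6 for NAC over both genotypes. The median difference ran from 0.048 to 0.18 for the genotype in mock, from 0.015 to 0.085 for the genotype in NAC, from 0.042 to 0.16 for NAC in the mutant and from -0.125 to 0.022 for the interaction, which turned positive without replicate 3 of mutant mock (0.022) or of wild-type mock (0.0008). The cause of these shifts was not tested. Without Rrm2 the median in mock was 0.11, and with the genes on shared probe sets 34 of 44 were higher there.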
